A study of Homo sapiens with 9 samples.

Results

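The ribosome biogenesis and nucleolar genes described here are 50 genes for RNA polymerase I and its factors, the snoRNP particles that modify ribosomal RNA, the factors that process and assemble both ribosomal subunits, and abundant nucleolar proteins. They were taken from a list of symbols, and each symbol matched 1 of the 58734 rows of the count table through its Ensembl ID. All 50 passed the filter on low counts, which left 16686 genes for testing. Expression was measured by poly-A selected, stranded RNA sequencing in HEK293T cells, a derivative of human embryonic kidney cells with SV40 large T antigen. The libraries fell into 3 groups of 3: cells transfected with siRNA against SIN3A, with siRNA against SIN3B, and with control siRNA. All groups received Ambion Silencer Select siRNA at 10 nM with Lipofectamine RNAiMAX for 36 h, and siRNA sequences are not given in the sources used here. SIN3A and SIN3B are paralogous scaffolds of a histone deacetylase complex, and the series set the loss of one beside the loss of the other.

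Ribosomes are made in the nucleolus. RNA polymerase I transcribes the long precursor of the ribosomal RNAs, snoRNPs guide its methylation and pseudouridylation, and large assemblies of processing factors fold and cut it into the RNAs of the small and the large subunit. Many genes of this pathway are known targets of MYC, which binds the E-box CACGTG with its partner MAX, and the MAX partners of the MXD family recruit SIN3 proteins to such sites. Poly-A selection measures the messenger RNAs of these factors, not ribosomal RNA or ribosome output.

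Libraries held 22542798 to 27084884 counts, and 98% or more of the nonzero counts of each were multiples of 4. A floor of 12 counts, 3 such steps, lay at 0.442 to 0.552 CPM (counts scaled to library size, with TMM factors) and covers counting error only. Each siRNA lowered its own target. SIN3A averaged 47.3 ± 2.5 CPM in SIN3A knockdown libraries and 146 ± 4.0 CPM in control libraries (SD, n = 3 each), and SIN3B averaged 55.1 ± 3.6 CPM in SIN3B knockdown libraries and 96.2 ± 4.7 CPM in control libraries. MYC fell in both, to 156 ± 6.0 CPM in SIN3A knockdown and 116 ± 3.8 CPM in SIN3B knockdown libraries, against 181 ± 11 CPM in control libraries (edgeR adjusted p = 0.0232 and 1.64e-06). The neurofilament genes that HEK293 cells are known to express were present in all 9 libraries, NEFM at 168 to 341 CPM, and PTPRC, CD3E, COL1A2, DCN and CDH5, markers of blood, fibroblast and endothelial cells, had no counts. SIN3A knockdown libraries lay further apart than the others: chi-square per degree of freedom between pairs of libraries was 3.77 to 7.97 there, against 1.46 to 2.07 within the other groups, and SIN3A knockdown replicate 1 was in the widest pairs. Whether replicates were separate transfections is not in the labels. The p-values therefore reflect only how far these libraries differ, a spread that may be technical.

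In control libraries the members spanned a wide range of levels per exon length. NPM1, the nucleolar histone chaperone nucleophosmin, led at 528 CPM per kb of exon, followed by NCL, nucleolin, at 239 CPM per kb, FBL, the methyltransferase of box C/D snoRNPs, at 196 CPM per kb, and NOP10, a small subunit of box H/ACA snoRNPs, at 181 CPM per kb. The lowest were NOP2 at 0.487 and PPAN at 3.68 CPM per kb. Both share exons with a longer annotated gene on the same strand: AC006064.6 covers 2550 of the 4687 exon bases of NOP2, PPAN-P2RY11 covers 1447 of the 2583 exon bases of PPAN, and both longer genes had 0 counts in every library. Whether reads in the shared exons were counted for NOP2 and PPAN is not given in the sources used here, so their place in this order is uncertain. NPM1 has 45 named pseudogenes in the annotation, so its level depends on how reads with several matches were counted, which is not given in the sources used here. The same limit holds for DDX18 (5 named pseudogenes), NOP56 (3) and RRN3, NHP2, DDX10, PES1 and NCL (2 each).

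Summed, the members held 1.13%, 1.07% and 1.05% of all counts in SIN3A knockdown libraries, 1.10%, 1.12% and 1.14% in SIN3B knockdown libraries, and 1.10%, 1.12% and 1.10% in control libraries. The groups overlapped. No member changed by 2-fold or more in any comparison. Of the 16686 tested genes 1307 did so in SIN3A knockdown, 974 in SIN3B knockdown and 1357 between the knockdowns. The median absolute log2 fold change of the members was 0.14 in SIN3A knockdown and 0.12 in SIN3B knockdown, beside 0.26 and 0.25 for all 16686 tested genes. The tested genes were not matched to the members for level, so the members cannot be called steadier than genes of like level. In bulk RNA, fewer cells of a kind and less RNA per cell cannot be told apart.

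The first comparison asked which of these genes changed when SIN3A was reduced. In SIN3A knockdown 5 members rose and 6 fell, and 39 were not called (edgeR quasi-likelihood test, adjusted p under 0.05 over all tested genes). Here and below, called and not called refer to this test of all 9 libraries unless another is named. Where libraries are said not to overlap, this describes the named genes and is no second test. The share of all tested genes without overlap was not counted. The 11 called members are 22% of the 50, against 23% of all tested genes, with 10% risen against 12.2% and 12% fallen against 10.8%, so the share was near the background. EBNA1BP2, FTSJ3 and NOP16, assembly factors of the large subunit, rose, as did TEX10 and DDX21, and RRP1B, UBTF, FBL, MYBBP1A, PPAN and NOP56 fell. The median log2 fold change was 0.03 for the members and -0.00 for all tested genes. The count of 11 was 6 and 7 without control replicates 3 and 2, and 7 in a fit of the 6 libraries compared, which called 19.7% of its tested genes. Without SIN3A knockdown replicate 1, 15 members were called, 6 risen and 9 fallen, and 10 of the 11 remained. The share of all tested genes called without single libraries was not counted. With upper-quartile scaling 4% of the members rose and 18% fell (2 and 9), beside 8.10% and 13.9% of all tested genes. With offsets for GC content and length, an alternative chosen after seeing the data, 18% rose and 16% fell (9 and 8), beside 14.2% and 12.6% of all tested genes.

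The same question was then put for SIN3B. In SIN3B knockdown 9 members rose and 6 fell, and 35 were not called. RRS1, LAS1L, RRP9, WDR12, PELP1 and NAT10 fell, and GAR1, RRN3, UTP20, DDX21, NOP58, WDR75, WDR43, UTP4 and RRP1B rose. The 15 called members are 30% of the 50, against 23.6% of all tested genes, with 18% risen against 12% and 12% fallen against 11.6%. The median log2 fold change was 0.05 for the members and -0.02 for all tested genes. The count of 15 was 10 without control replicate 3 and without SIN3B knockdown replicates 2 and 3, where the share of all tested genes called was not counted. A fit of the 6 libraries compared called 22, 13 risen and 9 fallen, and 33.0% of its tested genes. With upper-quartile scaling 14% of the members rose and 16% fell (7 and 8), beside 10.1% and 13.7% of all tested genes. With the offsets for GC content and length 34% rose and 14% fell (17 and 7), beside 12% and 10.9% of all tested genes, and 11 of the 15 remained. Both knockdowns were set against the same 3 control libraries, so members called in both are given by their own values only.

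**Figure D1:**
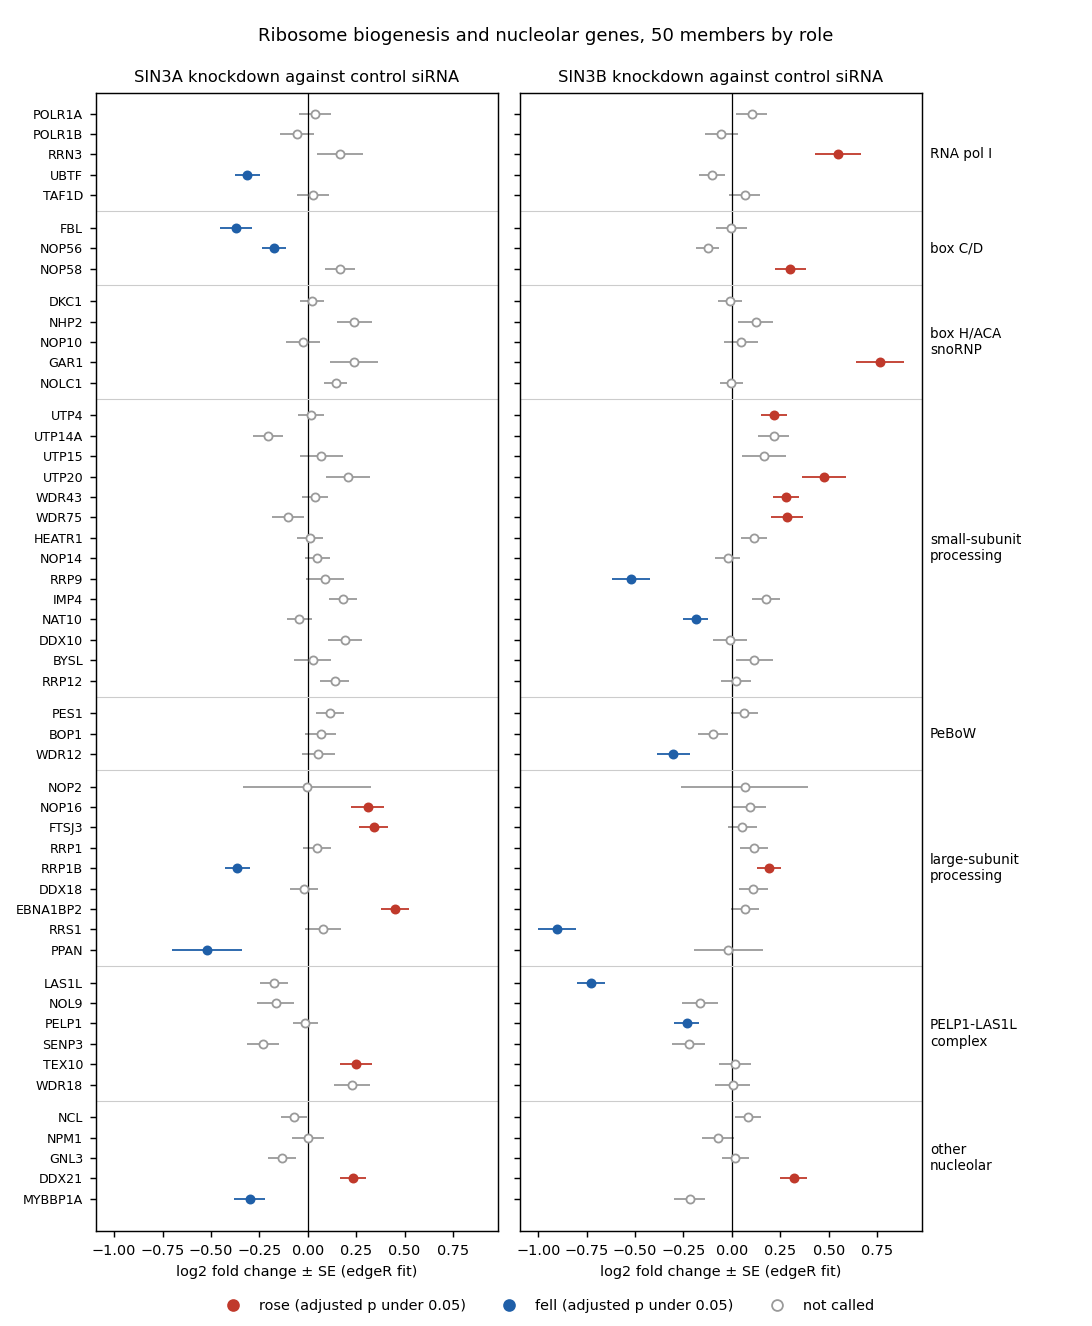
Log2 fold change with its standard error (x axis) of each of the 50 members, ordered by role (y axis), in SIN3A knockdown (left) and SIN3B knockdown (right) against the same control siRNA libraries. Filled points passed the edgeR test at an adjusted p under 0.05; RRS1 and LAS1L stand farthest to the left and GAR1 farthest to the right, all in SIN3B knockdown.

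**Figure D2:**
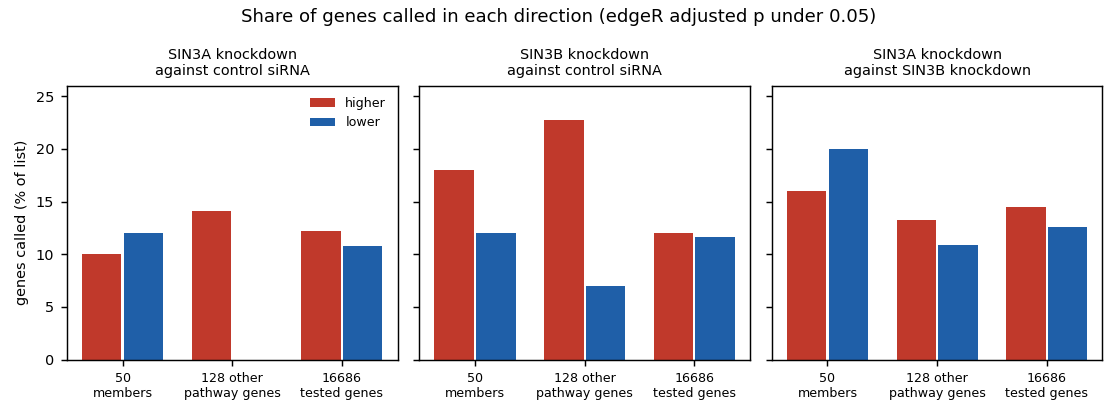
Percent of genes called in each direction (y axis) among the 50 members, the 128 other pathway genes and all 16686 tested genes, for the 3 comparisons. In SIN3A knockdown 10% and 12% of the members were called higher and lower beside 12.2% and 10.8% of all tested genes, and 14.1% and 0% of the other pathway genes.

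Among the 5 RNA polymerase I genes, UBTF fell in SIN3A knockdown and RRN3 rose in SIN3B knockdown. UBTF (ENSG00000108312, chromosome 17, 44205033 to 44221626, minus strand of GRCh38) encodes the architectural factor that keeps ribosomal gene repeats open and active. It was at 143, 142 and 142 CPM in SIN3A knockdown libraries, 162, 159 and 173 CPM in SIN3B knockdown libraries, and 170, 188 and 173 CPM in control libraries. All SIN3A knockdown values lay below all others, with a log2 fold change against control of -0.31 ± 0.07 (SE, edgeR adjusted p = 0.00213), and in SIN3B knockdown it was at -0.10 ± 0.07 (edgeR adjusted p = 0.3). RRN3 (TIF-IA), which couples the polymerase to the promoter in response to growth signals, was at 76.1, 69.3 and 68.2 CPM in SIN3B knockdown libraries and 44.5, 48.2 and 53.4 CPM in control libraries. The groups did not overlap, and the log2 fold change was 0.55 ± 0.12 (edgeR adjusted p = 0.00234). In SIN3A knockdown RRN3 was at 47.7, 47.1 and 69.1 CPM, with replicate 3 high and the others within the control range (edgeR adjusted p = 0.354). RRN3 has 2 named pseudogenes in the annotation, so its counts are uncertain where reads match several copies. The catalytic subunits POLR1A and POLR1B and the promoter selectivity factor subunit TAF1D were not called in any of the 3 comparisons, with log2 fold changes from -0.06 to 0.10 against control. After offsets for GC content and length were applied, TAF1D turned to -0.29 in SIN3B knockdown (edgeR adjusted p = 0.00144) and POLR1A was at 0.23 there (edgeR adjusted p = 0.00392), and both were called.

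Of the 3 box C/D snoRNP proteins, FBL and NOP56 fell in SIN3A knockdown and NOP58 rose in SIN3B knockdown. FBL, fibrillarin, the enzyme that methylates ribosomal RNA (ENSG00000105202, chromosome 19, 39834458 to 39846414, minus strand), was at 383, 318 and 287 CPM in SIN3A knockdown libraries, 434, 413 and 427 CPM in SIN3B knockdown libraries, and 411, 434 and 432 CPM in control libraries. It fell in SIN3A knockdown by 0.37 ± 0.08 on the log2 scale (edgeR adjusted p = 0.0028) with no overlap of the groups, and SIN3A knockdown replicate 1 stood above the other replicates of its group. In SIN3B knockdown FBL was at -0.00 ± 0.08 (edgeR adjusted p = 0.986). NOP58, a core protein of the same particle, was at 253, 282 and 279 CPM in SIN3B knockdown libraries and 230, 230 and 200 CPM in control libraries, a rise of 0.30 ± 0.08 (edgeR adjusted p = 0.00719) that was not called without control replicate 3 (0.24, edgeR adjusted p = 0.0628). NOP56, its partner in the particle, averaged 434 ± 19 CPM in SIN3A knockdown and 489 ± 8.5 CPM in control libraries (SD, n = 3 each), and its log2 fold change of -0.17 ± 0.06 was close to the threshold (edgeR adjusted p = 0.0499). The NOP56 call was lost without any 1 of 5 of the 6 libraries, with edgeR adjusted p of 0.0987 to 0.145, and held without SIN3A knockdown replicate 1. In all it was lost in 12 of 18 settings.

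Of the 4 core proteins of the box H/ACA snoRNP, which pseudouridylates ribosomal RNA, GAR1 rose in SIN3B knockdown and the others did not pass the test. GAR1 (ENSG00000109534, chromosome 4, 109815510 to 109824740, plus strand), which helps release the modified RNA, was at 47.3, 50.9 and 49.9 CPM in SIN3B knockdown libraries and 29.1, 25.8 and 32.3 CPM in control libraries. Every SIN3B knockdown value lay above every control value, and its rise of 0.76 ± 0.12 (edgeR adjusted p = 0.00016) was the largest of any member in either knockdown. Offsets for GC content and length left it called. In SIN3A knockdown GAR1 was at 38.1, 26.8 and 38.0 CPM, with replicate 2 inside the control range and the other replicates above it (0.24 ± 0.12, edgeR adjusted p = 0.185), and it was called without replicate 2 (0.39, edgeR adjusted p = 0.0156). The pseudouridine synthase DKC1, dyskerin, averaged 285 ± 9.9, 279 ± 3.8 and 280 ± 10 CPM in SIN3A knockdown, SIN3B knockdown and control libraries. NHP2 was at 296, 225 and 215 CPM in SIN3A knockdown libraries, with replicate 1 far above the rest, and averaged 208 ± 7.4 CPM in control libraries (0.24 ± 0.09, edgeR adjusted p = 0.062). It was called with offsets for GC content and length in SIN3A and SIN3B knockdown (0.21 and 0.24). NOP10 and the snoRNP chaperone NOLC1 were also not called by edgeR, with log2 fold changes from -0.03 to 0.14 against control. DESeq2 called NOLC1 higher in SIN3A knockdown than in control libraries (0.15, adjusted p = 0.016) and than in SIN3B knockdown (0.15, adjusted p = 0.0128). Without SIN3A knockdown replicate 1 edgeR called both differences as well (0.18 and 0.18, edgeR adjusted p = 0.0051 and 0.00452). With offsets for GC content and length it also called both (0.17 and 0.13, edgeR adjusted p = 0.0117 and 0.0433).

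None of the 14 genes of small-subunit processing was called in SIN3A knockdown by edgeR, with log2 fold changes from -0.20 to 0.21, beside 23% called of all tested genes. In SIN3B knockdown 4 rose and 2 fell, 28.6% and 14.3% of the 14, beside 12% and 11.6% of all tested genes. At an unadjusted p under 0.05 edgeR had 2 higher and 1 lower in SIN3A knockdown, DESeq2 called IMP4 higher (0.19, adjusted p = 0.0469) and limma on FPKM called 0. DESeq2 called 25.5% of its tested genes there, and shares of all tested genes at an unadjusted p and by limma were not counted. UTP4, WDR43 and WDR75, which belong with UTP15 and HEATR1 to the subcomplex that first binds the nascent precursor, rose in SIN3B knockdown. WDR43 was at 148, 153 and 148 CPM in SIN3B knockdown libraries and 121, 131 and 118 CPM in control libraries (0.28 ± 0.07, edgeR adjusted p = 0.00416), with no overlap. WDR75 was at 110, 120 and 129 CPM in SIN3B knockdown libraries and 97.9, 104 and 92.9 CPM in control libraries (0.29 ± 0.08, edgeR adjusted p = 0.0173). UTP4 averaged 135 ± 3.6 CPM in SIN3B knockdown and 116 ± 4.5 CPM in control libraries (0.22 ± 0.07, edgeR adjusted p = 0.0217). UTP15 (0.17 ± 0.11) and HEATR1 (0.11 ± 0.07) of the same subcomplex did not pass the test. UTP20, a large scaffold of the processome, rose by 0.48 ± 0.11 (edgeR adjusted p = 0.00458), at 62.7, 89.3 and 83.2 CPM in SIN3B knockdown and 56.6, 63.1 and 49.3 CPM in control libraries, where the lowest SIN3B knockdown library lay inside the control range. The calls of WDR75 and UTP4 were lost without single libraries: WDR75 without control replicates 1 and 3 and SIN3B knockdown replicates 2 and 3 (0.23 to 0.28, edgeR adjusted p of 0.0611 to 0.119), and UTP4 without control replicates 1 and 3 and each SIN3B knockdown replicate (0.20 to 0.23, edgeR adjusted p of 0.0629 to 0.104). UTP4 was not called with upper-quartile scaling either, and WDR75 not by limma on FPKM. With offsets for GC content and length WDR43 was at 0.093 (edgeR adjusted p = 0.315) and WDR75 at -0.022 (edgeR adjusted p = 0.906).

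RRP9, the protein specific to the U3 snoRNP that guides the first cuts of the precursor (ENSG00000114767, chromosome 3, 51933430 to 51941941, minus strand), fell in SIN3B knockdown. It was at 45.8, 48.2 and 44.8 CPM in SIN3B knockdown libraries, 78.7, 69.2 and 64.1 CPM in SIN3A knockdown libraries, and 59.6, 75.3 and 64.3 CPM in control libraries. The SIN3B knockdown values lay below all others and its log2 fold change against control was -0.52 ± 0.10 (edgeR adjusted p = 0.000631) and, with offsets for GC content and length, -0.34, while in SIN3A knockdown it was at 0.09 ± 0.10 (edgeR adjusted p = 0.566). NAT10, the acetyltransferase of small-subunit ribosomal RNA, was at 140, 139 and 147 CPM in SIN3B knockdown libraries and 160, 165 and 160 CPM in control libraries (-0.19 ± 0.06, edgeR adjusted p = 0.0405). That call was lost without any 1 of the 6 libraries, with values from -0.17 to -0.21 and edgeR adjusted p of 0.0701 to 0.16, and with offsets for GC content and length (-0.086, edgeR adjusted p = 0.313). UTP14A, a processome factor, was at 112, 100 and 97.1 CPM in SIN3A knockdown, 135, 138 and 141 CPM in SIN3B knockdown, and 112, 132 and 113 CPM in control libraries, and was called in neither knockdown against control (-0.20 and 0.22, edgeR adjusted p = 0.0698 and 0.0542). DESeq2 called it in SIN3B knockdown (adjusted p = 0.041). NOP14, IMP4, DDX10, BYSL and RRP12 were not called by edgeR in any of the 3 comparisons, with log2 fold changes from -0.02 to 0.19 against control. With offsets for GC content and length, IMP4 (0.29), BYSL (0.28) and RRP12 (0.19) were called higher and DDX10 (-0.23) lower in SIN3B knockdown, and IMP4 (0.22) and RRP12 (0.21) higher in SIN3A knockdown.

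Of the 3 PeBoW proteins, which form a complex needed to process the large-subunit RNAs, WDR12 fell in SIN3B knockdown. It was at 60.9, 67.2 and 62.9 CPM in SIN3B knockdown libraries, 91.8, 74.8 and 78.0 CPM in SIN3A knockdown libraries, and 77.4, 81.6 and 76.6 CPM in control libraries. The SIN3B knockdown values lay below all others (-0.30 ± 0.09, edgeR adjusted p = 0.0135), and with offsets for GC content and length it was at -0.54. Without control replicate 2 or SIN3B knockdown replicate 3 the value was -0.29 and the call was lost (edgeR adjusted p = 0.0523 and 0.058). Its partners PES1 and BOP1 were not called in any of the 3 comparisons and stood between -0.10 and 0.11 against control. The same offsets put PES1 at 0.24 in SIN3B knockdown, where it was called (edgeR adjusted p = 0.00599).

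The 9 other factors of the large subunit included RRS1, RRP1B and EBNA1BP2, each with a difference that held in the 18 alternative settings run. RRS1 (ENSG00000179041, chromosome 8, 66429028 to 66430733, plus strand) is needed to bring the small ribosomal RNA of the large subunit into the pre-ribosome. It was at 23.6, 23.7 and 28.3 CPM in SIN3B knockdown libraries, 52.4, 49.1 and 47.9 CPM in SIN3A knockdown libraries, and 47.8, 47.1 and 46.5 CPM in control libraries. Its fall in SIN3B knockdown, -0.90 ± 0.10 on the log2 scale (edgeR adjusted p = 1.79e-06), was the largest fall of any member in either knockdown, and in SIN3A knockdown its values lay just above control, at 0.08 ± 0.09 (edgeR adjusted p = 0.607). RRS1 also shares 194 exon bases with AC009879.2, a gene on the same strand that had 0 counts in every library.

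RRP1B, a nucleolar partner of protein phosphatase and chromatin proteins (ENSG00000160208, chromosome 21, 43659548 to 43696079, plus strand), was the member called in opposite directions. It was at 203, 221 and 228 CPM in SIN3A knockdown libraries, 324, 322 and 314 CPM in SIN3B knockdown libraries, and 274, 276 and 290 CPM in control libraries. The 3 groups were fully separated, with log2 fold changes of -0.36 ± 0.06 in SIN3A knockdown (edgeR adjusted p = 0.000453) and 0.19 ± 0.06 in SIN3B knockdown (edgeR adjusted p = 0.0332). The fall in SIN3A knockdown held in the 18 settings run, whereas the rise in SIN3B knockdown was lost without any 1 of the 6 libraries (0.17 to 0.22, edgeR adjusted p of 0.0531 to 0.145), with the replicate block (0.19, edgeR adjusted p = 0.0506), with upper-quartile scaling (0.15, edgeR adjusted p = 0.0962) and by limma on FPKM (0.19, adjusted p = 0.0551). It was at 0.30 with offsets for GC content and length (edgeR adjusted p = 0.00011). Its paralog RRP1 was not called in any of the 3 comparisons (0.05 ± 0.07 in SIN3A knockdown and 0.12 ± 0.07 in SIN3B knockdown), and with the offsets it was called in SIN3B knockdown (0.30, edgeR adjusted p = 0.00158).

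EBNA1BP2, the human counterpart of a yeast large-subunit factor (ENSG00000117395, chromosome 1, 43164175 to 43270936, minus strand), had the largest rise in SIN3A knockdown. It was at 293, 253 and 241 CPM in SIN3A knockdown libraries, 199, 204 and 202 CPM in SIN3B knockdown libraries, and 186, 202 and 189 CPM in control libraries. The SIN3A knockdown values lay above all others (0.45 ± 0.07, edgeR adjusted p = 0.000192). FTSJ3, a ribosomal RNA methyltransferase, followed, at 195, 191 and 180 CPM in SIN3A knockdown libraries and 138, 166 and 144 CPM in control libraries (0.34 ± 0.07, edgeR adjusted p = 0.00235). NOP16 was at 82.6, 78.6 and 74.0 CPM in SIN3A knockdown libraries and 58.8, 70.3 and 60.4 CPM in control libraries (0.31 ± 0.09, edgeR adjusted p = 0.0124), and its call was lost without control replicates 1 and 3 (0.26 and 0.29, edgeR adjusted p = 0.076 and 0.0533), with upper-quartile scaling (0.24, edgeR adjusted p = 0.0525) and by limma on FPKM (0.29, adjusted p = 0.0909). The SIN3A knockdown libraries did not overlap the control libraries for any of these 3 genes, and in SIN3B knockdown they stood at 0.05 to 0.09 and were not called. With offsets for GC content and length FTSJ3 was called there (0.18, edgeR adjusted p = 0.0395). The strand setting of the authors' counting is not given, and these 3 genes share 18.8%, 16.8% and 19.95% of their exon bases with genes on the opposite strand. Those neighbours, CFAP57, PSMC5, ARL10 and HIGD2A, were not called in SIN3A knockdown (edgeR adjusted p of 0.45 to 0.948). CFAP57, the neighbour of EBNA1BP2, was near the floor, at 0.59 ± 0.21 CPM in SIN3A knockdown and 0.27 ± 0.10 CPM in control libraries. Its log2 fold change was 1.11 ± 0.97, so its lack of a call says little. Whether reads of the opposite strand entered the counts of these genes was not tested.

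PPAN fell in SIN3A knockdown, at 5.52, 7.36 and 6.89 CPM against 8.11, 8.61 and 11.8 CPM in control libraries (-0.52 ± 0.18, edgeR adjusted p = 0.0423). It was not called without SIN3A knockdown replicates 1 and 3 or control replicates 2 and 3, where its value ran from -0.33, without control replicate 3, to -0.59 (edgeR adjusted p of 0.058 to 0.27), nor in DESeq2 (adjusted p = 0.0546), and was lost in 8 of 18 settings in all. NOP2, a ribosomal RNA methyltransferase, was at 1.88 to 2.94 CPM in SIN3A knockdown, 1.92 to 3.10 CPM in SIN3B knockdown and 1.59 to 2.97 CPM in control libraries. Its log2 fold changes were -0.00 ± 0.33 in SIN3A knockdown and 0.07 ± 0.33 in SIN3B knockdown (edgeR adjusted p = 0.997 and 0.923), the widest error of any member. The helicase DDX18 was not called in any of the 3 comparisons.

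The PELP1-LAS1L complex separates the RNAs of the large subunit by cutting the spacer between them, and LAS1L is its endonuclease. LAS1L (ENSG00000001497, chromosome X, 65512582 to 65534775, minus strand) was at 87.5, 83.0 and 80.5 CPM in SIN3B knockdown libraries, 131, 125 and 112 CPM in SIN3A knockdown libraries, and 139, 139 and 138 CPM in control libraries. All SIN3B knockdown values lay below all others, and its log2 fold change against control was -0.73 ± 0.07 (edgeR adjusted p = 8.17e-07), which held in the 18 settings run. The SIN3A knockdown values also lay below the control values, but the difference did not pass the test (-0.18 ± 0.07, edgeR adjusted p = 0.0867). It passed with upper-quartile scaling (-0.24, edgeR adjusted p = 0.0235) and without SIN3A knockdown replicate 1 (-0.21, edgeR adjusted p = 0.0265). PELP1, the scaffold of the complex, was at 163, 152 and 159 CPM in SIN3B knockdown libraries and 180, 192 and 185 CPM in control libraries (-0.23 ± 0.06, edgeR adjusted p = 0.0116). Without SIN3B knockdown replicate 2 it was at -0.21 (edgeR adjusted p = 0.0785), and with offsets for GC content and length at -0.066 (edgeR adjusted p = 0.45).

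Of the 4 other subunits of that complex, TEX10 rose in SIN3A knockdown and the others were not called by edgeR. The SUMO protease SENP3 was at 51.9, 49.3 and 46.7 CPM in SIN3A knockdown, 51.6, 49.1 and 47.9 CPM in SIN3B knockdown and 58.7, 58.1 and 56.7 CPM in control libraries. Both knockdowns lay below control without overlap and just missed the threshold (-0.23 and -0.22, edgeR adjusted p = 0.0509 and 0.0564). DESeq2 (adjusted p = 0.0373 and 0.0361) and limma on FPKM (adjusted p = 0.0308 and 0.0319) called SENP3 lower in SIN3A and SIN3B knockdown. NOL9, the kinase that acts after the cut, was at -0.17 and -0.16 in SIN3A and SIN3B knockdown and was not called. TEX10 was at 66.6, 63.4 and 62.7 CPM in SIN3A knockdown libraries against 55.2, 52.1 and 54.8 CPM in control libraries (0.25 ± 0.08, edgeR adjusted p = 0.0339), and WDR18 was at 0.23 ± 0.09 (edgeR adjusted p = 0.0766). The TEX10 call was lost without each of the 3 control replicates (0.22 to 0.27, edgeR adjusted p of 0.0628 to 0.128) and with upper-quartile scaling (0.18, edgeR adjusted p = 0.128). By limma on FPKM the adjusted p was 0.126, with offsets for GC content and length the value was 0.12 (edgeR adjusted p = 0.277), and in all the call was lost in 10 of 18 settings. The offsets also turned TEX10 to -0.26 in SIN3B knockdown, where it was called (edgeR adjusted p = 0.0208). SENP3 shares 1511 of its 3668 exon bases with the readthrough gene SENP3-EIF4A1, which was at 0 to 1.40 CPM.

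Among other nucleolar proteins, DDX21 rose in both knockdowns and MYBBP1A fell in SIN3A knockdown. DDX21, a helicase that links RNA polymerase I transcription to processing, was at 517, 465 and 531 CPM in SIN3A knockdown libraries, 507, 553 and 543 CPM in SIN3B knockdown libraries, and 456, 418 and 412 CPM in control libraries. Both knockdowns lay above control without overlap, at 0.23 ± 0.07 (edgeR adjusted p = 0.0193) and 0.32 ± 0.07 (edgeR adjusted p = 0.00219), and both share the control libraries. With offsets for GC content and length the SIN3B value was 0.16 (edgeR adjusted p = 0.0249). The SIN3A call was lost when control replicate 2, control replicate 3 or SIN3A knockdown replicate 3 was left out (0.20 to 0.22, edgeR adjusted p of 0.0542 to 0.0852) and with upper-quartile scaling (0.16, edgeR adjusted p = 0.101). MYBBP1A, a repressor of ribosomal gene transcription, was at 186, 235 and 235 CPM in SIN3A knockdown libraries, 243, 220 and 232 CPM in SIN3B knockdown libraries, and 268, 273 and 267 CPM in control libraries. It fell in SIN3A knockdown (-0.30 ± 0.08, edgeR adjusted p = 0.00923), by less without the low SIN3A knockdown replicate 1 (-0.18, edgeR adjusted p = 0.016), and in SIN3B knockdown just missed the threshold (-0.22 ± 0.08, edgeR adjusted p = 0.0511), where DESeq2 called it (adjusted p = 0.0335). NPM1 was at 2345, 1968 and 1754 CPM in SIN3A knockdown, 1847, 1952 and 1972 CPM in SIN3B knockdown, and 1999, 2036 and 2030 CPM in control libraries, so the SIN3A knockdown libraries lay on both sides of control. NCL and the nucleolar GTPase GNL3 were also not called by edgeR in any of the 3 comparisons, with log2 fold changes from -0.13 to 0.08 against control. DESeq2 called NCL lower in SIN3A than in SIN3B knockdown (-0.15, adjusted p = 0.0366). GNL3 was called in SIN3A knockdown without replicate 1 (-0.19, edgeR adjusted p = 0.00896) and with offsets for GC content and length (-0.19, edgeR adjusted p = 0.0113).

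**Figure D3:**
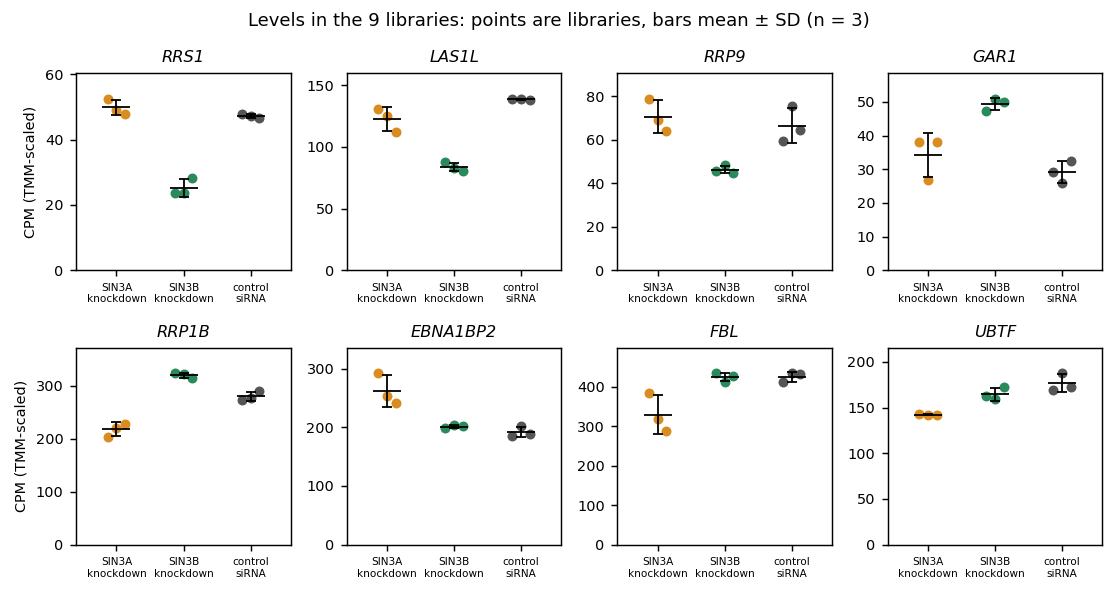
TMM-scaled CPM (y axis, from 0) of 8 members in each library of SIN3A knockdown, SIN3B knockdown and control siRNA; points are libraries and bars the mean and SD (n = 3). RRS1, LAS1L and RRP9 are lowest and GAR1 highest in SIN3B knockdown, RRP1B separates all 3 groups, and EBNA1BP2 is highest and FBL and UBTF lowest in SIN3A knockdown.

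The third comparison set the knockdowns against each other. In SIN3A knockdown 8 members were higher and 10 lower than in SIN3B knockdown, together 36% of the 50 beside 27.1% of all tested genes, with 16% higher against 14.5% and 20% lower against 12.6%. The median log2 fold change was -0.04 for the members and -0.02 for all tested genes. RRS1 (0.98 ± 0.10, edgeR adjusted p = 2.9e-07), LAS1L (0.55 ± 0.07, 1.28e-05) and RRP9 (0.61 ± 0.10, 9.62e-05) were higher in SIN3A knockdown, followed by EBNA1BP2 (0.38 ± 0.07, 0.000504). RRP1B had the lowest adjusted p of those lower in SIN3A knockdown (-0.56 ± 0.06, edgeR adjusted p = 2.16e-06), followed by UTP14A (-0.42 ± 0.08, 0.000481), WDR75 (-0.39 ± 0.08, 0.00175) and FBL (-0.37 ± 0.08, 0.00206). GAR1 (-0.53 ± 0.12, edgeR adjusted p = 0.00286) was lower as well. The libraries of the knockdowns did not overlap for any of these 9 genes. They were named for their low adjusted p in this same comparison, so the separation adds no support of its own. The remaining calls were WDR12, FTSJ3, PELP1 and TEX10, higher in SIN3A knockdown by 0.22 to 0.36, and WDR43, RRN3, UBTF, UTP4 and PPAN, with log2 fold changes from -0.20 to -0.50. Of these 9, PELP1, TEX10, WDR43, RRN3, UBTF, UTP4 and PPAN were not called when single libraries were left out, with edgeR adjusted p of up to 0.146. RRN3 was at -0.59 without its high SIN3A knockdown replicate 3. WDR75 was not called with offsets for GC content and length (-0.22, edgeR adjusted p = 0.0676).

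**Figure D4:**
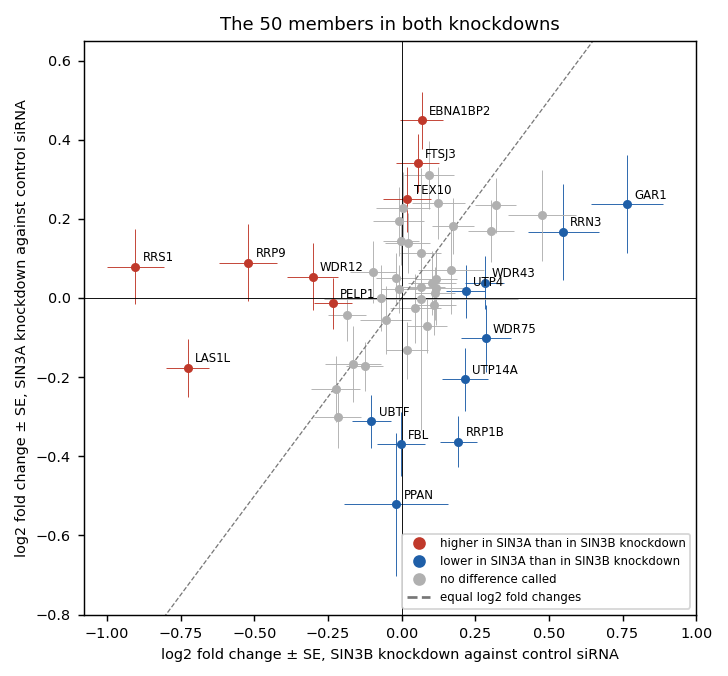
Log2 fold change with standard error of the 50 members in SIN3B knockdown (x axis) and SIN3A knockdown (y axis), each against the same 3 control libraries, so the axes are not independent. Coloured, named points differed between the knockdowns in the direct test; RRS1, LAS1L and RRP9 lie far to the left, and RRP1B lies to the right below 0.

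Among the 43 members with a promoter window in the RefSeq table (GRCh38.p14, 250 bases before to 50 after the annotated start), 20 held the E-box CACGTG, which reads the same on both strands. That is 46.5%, beside 8.77% of the 27305 genes with a window, 10.9% of the 15843 protein-coding ones and 26.9% of 108 other pathway genes. BOP1, DDX18, NOLC1, NOP58, RRP12, RRP1B and RRS1 had no window in the table. Windows around the E-box of 8 called members are shown because their genes moved in different directions. The windows of TEX10, UTP4, PELP1 and NAT10, also called against control, and a further window of EBNA1BP2 are not shown. Capitals mark the E-box.
GAR1: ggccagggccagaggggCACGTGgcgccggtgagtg
DDX21: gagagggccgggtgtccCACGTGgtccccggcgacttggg
UTP20: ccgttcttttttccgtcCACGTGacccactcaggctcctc
WDR43: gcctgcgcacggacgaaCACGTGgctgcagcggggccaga
EBNA1BP2: ctggagcgattcggtggCACGTGga
FBL: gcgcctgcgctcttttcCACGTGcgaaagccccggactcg
MYBBP1A: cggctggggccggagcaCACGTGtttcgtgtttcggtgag
RRP9: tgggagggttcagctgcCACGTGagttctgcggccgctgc

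On GRCh38.p14 these windows lie at chr4:109815776-109815811 (GAR1, plus strand), chr10:68956599-68956638 (DDX21, plus), chr12:101280078-101280117 (UTP20, plus), chr2:28894653-28894692 (WDR43, plus), chr1:43172241-43172265 (EBNA1BP2, minus), chr19:39846351-39846390 (FBL, minus), chr17:4555335-4555374 (MYBBP1A, minus) and chr3:51941887-51941926 (RRP9, minus). GAR1, DDX21, UTP20 and WDR43 rose in SIN3B knockdown and RRP9 fell there, while in SIN3A knockdown DDX21 and EBNA1BP2 rose and FBL and MYBBP1A fell. Over the 20 members with the E-box, 3 rose and 2 fell in SIN3A knockdown (median log2 fold change 0.03), and 5 rose and 3 fell in SIN3B knockdown (0.07). Over the 23 with a window and no E-box, 2 rose and 3 fell in SIN3A knockdown (0.02), and 2 rose and 2 fell in SIN3B knockdown (0.00). Of all tested genes 12.2% rose and 10.8% fell in SIN3A knockdown, and 12% and 11.6% in SIN3B knockdown. All tested genes were not divided by the E-box, so these counts describe the members only. Whether the motif had an effect was not tested. MYC fell in both knockdowns, and its part in these values was not tested.

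Another shared feature was the hosting of snoRNA genes. In GENCODE 29, 8 of the 50 members (16%) carried snoRNA genes within their bounds on the same strand, 33 in all, beside 1.37% of 19951 protein-coding genes. TAF1D carried 8, GNL3 6, NOP56 5, NOP58 4, NCL and WDR43 3 each, and DKC1 and PPAN 2 each. Of these hosts NOP56 and PPAN fell in SIN3A knockdown, NOP58 and WDR43 rose in SIN3B knockdown, and the others were called in neither. Of all tested genes 23% were called in SIN3A knockdown and 23.6% in SIN3B knockdown. Poly-A selected libraries count the spliced host messages, and the snoRNAs themselves were not analysed here.

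A pair of 7-base sequences for each knockdown, taken from an earlier analysis of these same data, was counted in the longest annotated 3′ UTR of each gene. Since they were found on these libraries, the counts below describe the members and are no independent evidence. Of the 50 members 12 held ACAGCCT or CAGCCTT (24%, beside 27.9% of 13386 tested genes with a 3′ UTR). In SIN3B knockdown 3 of these 12 fell and 0 rose, with a median of -0.08, and of the 38 members without one 3 fell and 9 rose, with a median of 0.06. The same skew ran through all tested genes with a 3′ UTR. Of those that fell in SIN3B knockdown 41.8% held one, beside 22.3% of those that rose and 26.4% of those not called. The holders that fell were RRS1, LAS1L and WDR12, and those that fell without holding one were RRP9, PELP1 and NAT10. The sites of LAS1L and WDR12 are shown because these genes fell in SIN3B knockdown, with the matching bases in capitals.
LAS1L: caacctgggagACAGCCTggatcagccaca
WDR12, first site: gatgcagaaagCAGCCTTttgaagtttata
WDR12, other site: gcctctcacctCAGCCTTccaagtagctgg

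On GRCh38 these stretches lie on the minus strand at chrX:65512665-65512694 for LAS1L, 92 bases into a 3′ UTR of 193 bases, and at chr2:202880753-202880782 and chr2:202877547-202877576 for WDR12, in a 3′ UTR of 6078 bases. GGTCTAA or AGGTCTA stood in 2 members, UTP15 and NOL9 (4%, beside 8.63% of tested genes with a 3′ UTR), and neither was called in SIN3A knockdown. Of all tested genes with a 3′ UTR that fell in SIN3A knockdown 16.5% held one, beside 6.13% of those that rose and 7.8% of those not called. Whether the siRNA itself lowered LAS1L, RRS1 or WDR12 through ACAGCCT or CAGCCTT was not tested.

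A wider list of 128 other ribosome biogenesis genes was counted beside the members, all of them tested. In SIN3A knockdown 18 rose and 0 fell by edgeR, 14.1% and 0% of the list beside 12.2% and 10.8% of all tested genes (median log2 fold change 0.08). At an unadjusted p under 0.05 edgeR had 36 higher and 3 lower, DESeq2 called 17 higher and 1 lower, and limma on FPKM called 10 higher and 0 lower. DESeq2 called 14% of its tested genes higher and 11.5% lower. Shares of all tested genes at an unadjusted p and by limma were not counted. Other scalings, offsets and left-out libraries were not counted for this list. With upper-quartile scaling 8.1% of all tested genes rose and 13.9% fell in SIN3A knockdown, so the one-sided count may depend on scaling. SHQ1, an assembly factor of box H/ACA snoRNPs, averaged 68.3 ± 5.7 CPM in SIN3A knockdown and 48.9 ± 1.9 CPM in control libraries (0.48 ± 0.09, edgeR adjusted p = 0.000573), and the small-subunit factors WDR46 (0.34 ± 0.08) and TSR3 (0.37 ± 0.09) followed. In SIN3B knockdown 29 rose and 9 fell, 22.7% and 7.03% of the list beside 12% and 11.6% of all tested genes (median 0.08). ZNHIT6, which assembles box C/D snoRNPs, averaged 100 ± 4.4 CPM in SIN3B knockdown and 65.8 ± 6.7 CPM in control libraries (0.61 ± 0.08, edgeR adjusted p = 3.43e-05), and the U3 snoRNP protein MPHOSPH10 (0.56 ± 0.09) and the polymerase I subunit POLR1F (0.66 ± 0.11) also rose. RRP36, a small-subunit factor, averaged 62.9 ± 2.6 CPM in SIN3B knockdown and 98.6 ± 5.4 CPM in control libraries (-0.65 ± 0.09, edgeR adjusted p = 1.89e-05), and the large-subunit ATPase MDN1 (-0.43 ± 0.07) and the polymerase I subunit POLR1G (-0.47 ± 0.10) fell with it.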

How the data were processed

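RNA was sequenced from 9 libraries, 3 per group, and titles and source names define the groups, because the treatment descriptions name the control siRNA last for each sample alike. Per the submitters' processing notes, reads were trimmed with Trimmomatic 0.36 and aligned to GRCh38 with HISAT2 2.1.0, and HTSeq and DESeq2 1.20.0 are also named. The deposited counts are whole-number read counts per Ensembl gene, and the authors' deposited FPKM values were used for an alternative test within genes. Strand setting, annotation version and treatment of reads with several matches are not given in the sources used here.

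Counts were filtered with filterByExpr (minimum count 10, total 15), scaled by TMM and tested in 1 fit of all libraries with the robust quasi-likelihood test of edgeR 4.0.16 in R 4.3.3, which left 6 residual degrees of freedom. P-values were adjusted by Benjamini-Hochberg over 16686 genes, with a threshold of 0.05. Alternatives used other scalings and filters, DESeq2 1.42.0, limma 3.58.1 on log2(FPKM + 1) and log2(FPKM + 0.1), a replicate block and left-out libraries. Gene bounds, exons, snoRNA genes and 3′ UTRs are from GENCODE 29 and promoters from RefSeq. The members and lists were chosen with earlier results of these data known. All members are accounted for; library values were to be given for the 5 rises and 5 falls with the lowest adjusted p in each knockdown, the 4 each way between knockdowns and any member called in opposite directions, and other members' values were added. Of the other pathway genes the 3 with the lowest adjusted p each way are named.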

Additional observations from a re-analysis of the deposited data

How the results depend on the processing

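Of the 44 called differences of members, 23 kept their call and direction in the 18 alternatives run for each, 21 lost the call in at least 1, and 1 changed sign: WDR75 in SIN3B knockdown was at -0.022 with offsets for GC content and length, an alternative chosen after seeing the data. The cause was not tested. With these offsets 17 members were called in SIN3A knockdown and 24 in SIN3B knockdown, against 11 and 15. Of all tested genes 26.8% and 22.9% were called with the offsets, against 23% and 23.6%. Of the differences not called, 39 of 25 members were called in at least 1 alternative, and 2 of these turned direction: with the offsets TAF1D was at -0.29 and TEX10 at -0.26 in SIN3B knockdown. A fit of the 6 libraries compared called 7 in SIN3A knockdown, 22 in SIN3B knockdown and 14 between them, against 11, 15 and 18. It called 19.7%, 33% and 24.4% of its tested genes. Leaving out single libraries gave 6 to 15 called members in SIN3A knockdown, 10 to 13 in SIN3B knockdown and 13 to 21 between the knockdowns. The share of all tested genes called was not counted for these fits, so a change particular to the members cannot be read from them. Upper-quartile scaling moved the median of all tested genes by -0.069 in SIN3A knockdown and -0.039 in SIN3B knockdown.

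Same-numbered libraries of different groups did not deviate together, so the replicate numbers were not taken as pairs. With the replicate block, 9, 13 and 17 members were called in SIN3A knockdown, in SIN3B knockdown and between them, against 11, 15 and 18. Of all tested genes 20.8%, 21.9% and 25.4% were called with the block, against 23%, 23.6% and 27.1% in the main fit. The block ended the calls of NOP56 and TEX10 in SIN3A knockdown, NAT10 and RRP1B in SIN3B knockdown, and TEX10 between them.

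With 3 libraries per group, differences near 0.2 on the log2 scale lay close to the threshold. Nonzero counts were mostly multiples of 4, and dividing the counts by 4 kept all 44 calls.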
